A study of Gloeophyllum trabeum and Trametes versicolor with 18 samples.

Results

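The comparison described here sets *Gloeophyllum trabeum* grown on high-melanin fungal necromass against the same fungus grown on low-melanin fungal necromass. It uses the 3 libraries labelled for each of these carbon sources, 6 of the 18 libraries of the series, and all 11880 transcripts in their tables. The members were taken from the sample labels and not from any measured value. *G. trabeum* strain ATCC 11539 was cultured for 7 days in Highley's medium, a mineral medium, to which 0.45% (w/v) low-melanin or 0.45% high-melanin necromass was added. A further 3 libraries of the same strain and time, grown with 1% (w/v) glucose in that medium, serve as the reference level here and share the model's estimate of spread. The libraries were made from fungal biomass. The labels grade the necromass only as low or high in melanin. The amount of melanin, the fungus that was killed to make each necromass, and other differences between the batches of necromass are not given in the sources used here. Melanin and such other differences therefore cannot be told apart. Separate cultures for the 3 libraries of a group are not stated either, and the p-values then measure only how much these libraries spread, which may be technical.

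*G. trabeum* is a brown-rot fungus. Such fungi remove cellulose and hemicellulose from wood while leaving most of the lignin behind in modified form, and they use small-molecule oxidative chemistry ahead of secreted enzymes. Fungal necromass is dead hyphal material, made of cell wall polymers such as chitin and glucans together with proteins and other cell contents. Melanin is a dark, cross-linked polyphenolic pigment that many fungi deposit in their cell walls, and melanised necromass is known to decay more slowly in soil than pale necromass. In filamentous fungi, genes of one metabolic pathway often lie next to each other on a chromosome and are expressed together. The files and the reference gene table pair the transcripts with locus tags only and give no function, so transcripts are named by locus tag, no role is given to any of them, and the labelled biomass could not be checked against marker genes.

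The libraries held 18050313 to 25342327 estimated counts each on necromass and 19569518 to 21138281 on glucose. CPM, the unit used throughout, is the estimated count of a transcript scaled to 1000000 counts of a TMM-scaled library. Principal component analysis of the 6 necromass libraries placed 50.3% of the variance of log2 CPM on a first component that separated the necromass types. The 3 low-melanin libraries lay at -23.0, -22.8 and -23.5 on it, and the high-melanin libraries at 15.3, 9.04 and 45.03, so that high-melanin replicate 3 stood apart from its group. Its Pearson correlation across transcripts with the other libraries of its group was 0.967 and 0.968, against 0.992 between those 2 libraries and 0.983 to 0.988 among low-melanin libraries. The second component held 27.6% of the variance and separated high-melanin replicate 3 (23.1) and low-melanin replicate 1 (20.3) from the remaining high-melanin libraries (-24.7 and -19.7). These libraries with high values had the shortest mean fragments of the 6, at 249.9 and 246 bases against 262.5 to 270.1, and the largest share of counts in their 10 most abundant transcripts, at 10.35% and 10.3% against 6.882% to 8.522%. Whether fragment length takes a part in the results was not tested beyond the refits whose values are given with them.

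**Figure D1:**
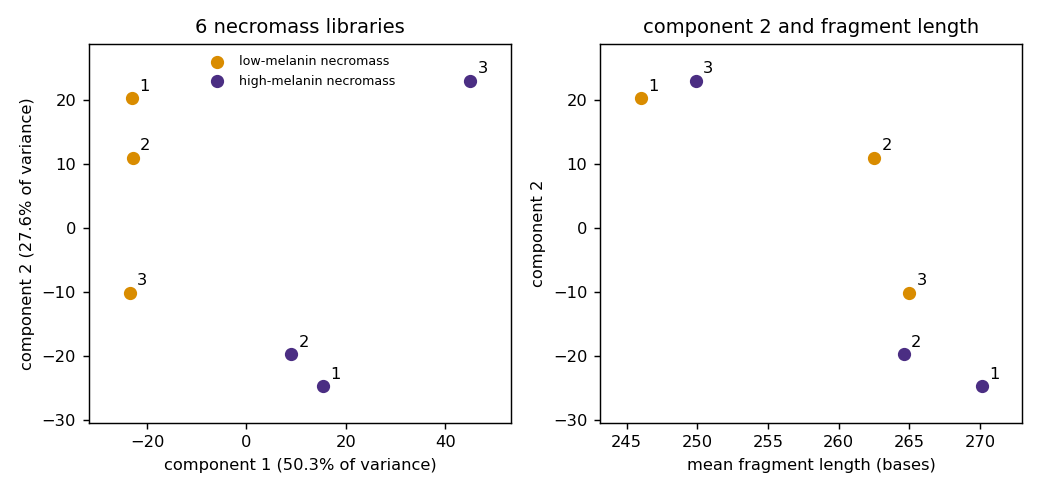
Principal components of log2 CPM for the 6 necromass libraries, 1 point per library with its replicate number, low-melanin in orange and high-melanin in purple. The left panel plots component 2 against component 1 and the right panel component 2 against the mean fragment length in bases; low-melanin replicate 1 and high-melanin replicate 3, with the shortest fragments, have the highest values of component 2.

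With TMM scaling, more transcripts of *G. trabeum* were lower on high-melanin necromass than were higher, and the lower ones had the larger median change. Of 10728 transcripts tested, 720 (6.71%) differed between the necromass types at a Benjamini-Hochberg adjusted p under 0.05 in edgeR's quasi-likelihood test, with 221 (2.06%) higher on high-melanin necromass and 499 (4.65%) lower there. A change of at least 2-fold was fitted for 331 of them (3.09% of those tested), 74 higher (0.690%) and 257 lower (2.40%). At least 4-fold, there were 8 higher and 78 lower transcripts, and at least 8-fold there were 1 and 24. The median log2 fold change (high-melanin minus low-melanin) was 0.86 among the higher calls, with quartiles of 0.68 and 1.13, and -1.04 among the lower calls, with quartiles of -1.60 and -0.72. Over all transcripts tested it was 0.01. When the test asked for a change beyond 2-fold and not merely for any change, 33 transcripts passed, 3 higher and 30 lower.

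In all 720 called transcripts the 3 libraries of one necromass type lay entirely above the 3 of the other. That separation was also common among transcripts that were not called, since 1299 of all tested (12.1%) were separated upwards and 1420 (13.2%) downwards. The excess of lower over higher calls depended on the scaling of the libraries. With TMM scaling 30.7% of the called transcripts were higher, and with scaling by library size alone 441 were higher and 406 lower, or 52.1% higher. The median log2 fold change over all tested transcripts moved from 0.01 to 0.10 with that scaling. Among transcripts changed by at least 2-fold the lower ones remained more numerous under that scaling too, with 229 lower and 121 higher. The number of calls also moved with single libraries. It was 320 without high-melanin replicate 1 and 448 without low-melanin replicate 2, against 663 without high-melanin replicate 3, which had stood apart on the first component. Of the 221 higher calls, 67 (30.3%) were kept in all 9 fits that each left out 1 library. Of the 499 lower calls, 213 (42.7%) were kept in all of them. No call changed sign in any of the 22 alternatives tried. Since the libraries were fully separated in every call, a reversal was hardly possible, and the kept signs test little.

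**Figure D2:**
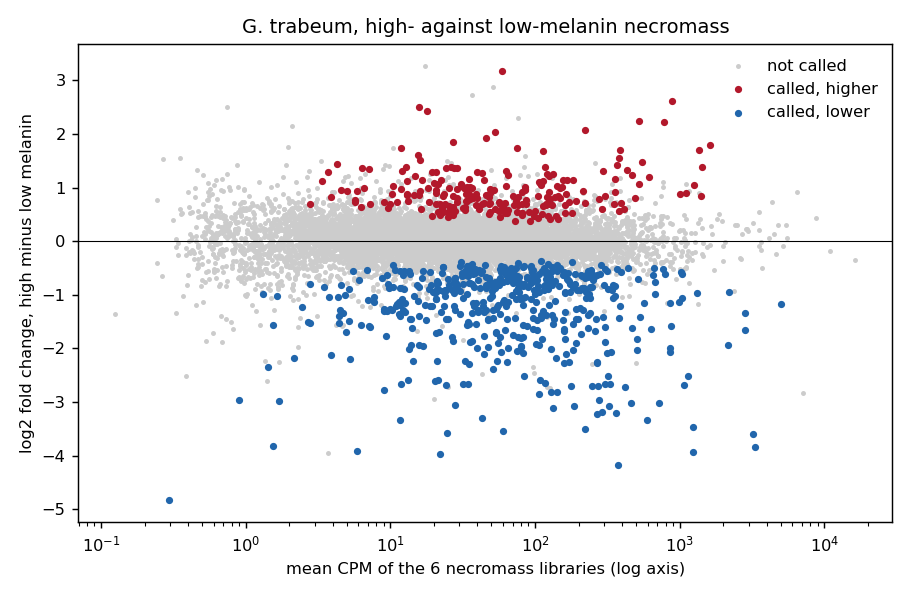
Log2 fold change of each of 10728 transcripts (high-melanin minus low-melanin necromass) against its mean CPM over the 6 necromass libraries on a log axis. Red points are the 221 transcripts called higher, blue points the 499 called lower and grey points those not called; the blue points reach -4.83 and the red ones 3.18.

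The transcripts that were lower on high-melanin necromass made up a substantial part of the RNA on the low-melanin type. Together the 499 took 14.3%, 13.0% and 10.1% of the counts of the 3 low-melanin libraries and 4.87%, 5.51% and 4.34% of the high-melanin libraries. Part of the low-melanin share came from very abundant transcripts whose calls moved with single libraries. GLOTRDRAFT_134131 and GLOTRDRAFT_108690, described below, were at 14550 and 14060 CPM in low-melanin replicate 1 and at 746 and 803 CPM in replicate 3. The 221 higher transcripts took 1.78%, 1.89% and 2.01% on low-melanin necromass and 4.46%, 4.09% and 4.52% on the high-melanin type. The transcripts come from this very comparison, so their shares are a description of it and test nothing. Calls were more frequent among abundant transcripts. Of the 101 transcripts with a mean of at least 1000 CPM on necromass, 14.9% were lower and 6.93% higher, while of the 2148 between 1 and 10 CPM, 2.14% were lower and 0.838% higher. 

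Glucose cultures give a reference level from libraries that the comparison of the necromass types did not contrast. Against glucose, 5963 transcripts (55.6%) were called on low-melanin necromass and 6325 (59.0%) on the high-melanin type, comparisons that share the glucose libraries. Of the 499 lower transcripts, 289 (57.9%) had a glucose mean above both necromass means, 132 (26.5%) a glucose mean between them and 78 (15.6%) a glucose mean below both. Over all tested transcripts these shares were 43.3%, 10.3% and 46.4%. For most of the lower group, then, the order of the means was glucose, low-melanin, high-melanin. Among the 221 higher transcripts, 152 (68.8%) had a glucose mean below both necromass means, 31 (14%) between them and 38 (17.2%) above both. In most of the higher group the order was thus reversed, with the lowest mean on glucose and the highest on high-melanin necromass. In summed share of counts, the lower group took 15.8% ± 0.4 (SD, n = 3) on glucose and the higher group 1.77% ± 0.15.

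GLOTRDRAFT_131887 showed the largest fold increase among called transcripts that passed the rule for naming. This transcript of 558 bases was at 7.51, 11.96 and 15.6 CPM in the 3 low-melanin libraries and at 155, 116 and 46.9 CPM in the high-melanin libraries. The glucose libraries held 0.529, 0.677 and 1.60 CPM, so the 3 carbon sources did not overlap and rose in steps. Its log2 fold change between the necromass types was 3.18 ± 0.46 (SE, adjusted p = 0.00417), and only the test beyond 2-fold ended the call, at an adjusted p of 0.0501. GLOTRDRAFT_37518, at 1569 bases, had the same order of carbon sources with less spread. It stood at 4.91, 4.90 and 4.63 CPM on glucose, at 20.8, 19.98 and 16.9 on low-melanin necromass and at 84.0, 57.5 and 77.1 on the high-melanin type. The change between necromass types was 1.92 ± 0.15 on the log2 scale (SE, adjusted p = 0.000468), and it was called in all 22 alternatives, the test beyond 2-fold included (adjusted p = 0.0152). The reference gene next to it, GLOTRDRAFT_104268, was called higher as well, with a mean of 821 CPM on low-melanin and 1693 CPM on high-melanin necromass, a log2 difference of 1.04 (adjusted p = 0.0459). This neighbour was picked out after its values were seen, and its call was kept only without low-melanin replicate 1 or high-melanin replicate 2 among the 9 fits that left out a library, with adjusted p from 0.0627 to 0.153 in the others. GLOTRDRAFT_50702 was at 9.13, 15.5 and 10.6 CPM on low-melanin and 33.6, 52.1 and 41.7 CPM on high-melanin necromass, with no overlap. Its log2 change was 1.86 ± 0.30 (SE, adjusted p = 0.00649), and on glucose it held 5.20, 11.15 and 7.08 CPM, a range that overlaps the low-melanin values.

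Other transcripts higher on the high-melanin type were instead high on glucose and lowest on low-melanin necromass. GLOTRDRAFT_128236, a short transcript of 255 bases, was at 174, 252 and 229.9 CPM on glucose. It fell to 3.67, 8.03 and 5.17 CPM on low-melanin necromass and stood at 29.3, 26.3 and 34.95 CPM on the high-melanin type. The log2 difference between the necromass types was 2.43 ± 0.26 (SE, adjusted p = 0.00133) and was called in all 22 alternatives. Against glucose it was lower on both types, with log2 fold changes of -5.28 on low-melanin (adjusted p = 5.23e-07) and -2.86 on high-melanin necromass (adjusted p = 7.98e-06). These contrasts and the next ones against glucose share the glucose libraries. GLOTRDRAFT_135768 followed the same order, at 181, 141 and 190.3 CPM on glucose, at 24.5, 20.96 and 16.1 on low-melanin necromass and at 61.2, 118.8 and 73.6 on the high-melanin type. It differed between the necromass types by 2.04 ± 0.26 on the log2 scale (SE, adjusted p = 0.0026). GLOTRDRAFT_48672 was at 17.4, 18.02 and 26.03 CPM on glucose, at 1.95, 7.10 and 5.17 on low-melanin necromass and at 15.6, 37.3 and 27.7 on the high-melanin type. Here the glucose and high-melanin libraries overlapped and low-melanin necromass alone was low. Its log2 difference was 2.50 ± 0.44 (SE, adjusted p = 0.00979), and for this transcript and GLOTRDRAFT_135768 only the test beyond 2-fold ended the call, at 0.153 and 0.0624. GLOTRDRAFT_71520 had a like pattern at a higher level, with 1950, 1526 and 2081 CPM on glucose, at 77.0, 374 and 366 on low-melanin necromass and at 1149, 1063 and 1614 on the high-melanin type. Glucose and high-melanin libraries overlapped, while the necromass types did not, and the log2 difference between the latter was 2.23 ± 0.49 (SE, adjusted p = 0.0273). That call was lost without low-melanin replicate 2 or 3 or high-melanin replicate 1 or 3, at adjusted p of 0.0512, 0.051, 0.0723 and 0.0708, and the log2 difference was 1.58 without both short-fragment libraries.

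Several of the abundant higher transcripts were close to absent on glucose, and their calls were often lost when a single library was left out. GLOTRDRAFT_82308 was at 2.79, 6.56 and 9.26 CPM on glucose, at 731, 763 and 891 on low-melanin necromass and at 2442, 2229 and 1517 on the high-melanin type. The carbon sources did not overlap. Its log2 difference between necromass types was 1.38 ± 0.35 (SE, adjusted p = 0.0443), and the call was lost without any of the 3 low-melanin libraries (adjusted p = 0.126, 0.135 and 0.105), high-melanin replicate 1 or 2 (0.141 and 0.0949) or glucose replicate 2 (0.08), while the difference stayed between 1.24 and 1.47 in those fits. It was not called without both short-fragment libraries either (1.5, adjusted p = 0.0965). Among the 3 reference genes before it, GLOTRDRAFT_82303 and its neighbour GLOTRDRAFT_141492 were also higher, by 1.74 (adjusted p = 0.000188) and 0.57 (adjusted p = 0.0132) on the log2 scale, while GLOTRDRAFT_133922, between them and GLOTRDRAFT_82308, was not called (adjusted p = 0.746). GLOTRDRAFT_82303, from a mean of 34.5 CPM on low-melanin to 116 CPM on high-melanin necromass, was 1 of the 3 higher transcripts that passed the test beyond 2-fold, at an adjusted p of 0.011. These neighbours were picked out after their values were seen, and the call of GLOTRDRAFT_141492, whose counts were in part divided, was lost without high-melanin replicate 1 (adjusted p = 0.0506).

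GLOTRDRAFT_126546, of 336 bases, was at 6.59, 8.80 and 11.7 CPM on glucose, at 420.2, 941.5 and 578 on low-melanin necromass and at 1732, 1336 and 3203 on the high-melanin type. Its log2 difference between the necromass types was 1.69 ± 0.39 (SE, adjusted p = 0.0318). The call was lost without low-melanin replicate 1 or 3 (0.093 and 0.108), high-melanin replicate 1 or 3 (0.0687 and 0.0728) or glucose replicate 2 (0.0584), and without both short-fragment libraries, where the difference was 1.02 (0.114). GLOTRDRAFT_107452 held 3.32, 4.01 and 4.47 CPM on glucose, at 71.45, 377.5 and 297 on low-melanin necromass and at 834, 1046 and 2682 on the high-melanin type. Low-melanin replicate 1 was its lowest and high-melanin replicate 3 its highest necromass library. The difference of 2.61 ± 0.60 (SE, adjusted p = 0.0319) was 1.93 without high-melanin replicate 3 (adjusted p = 0.0797) and 1.48 without both short-fragment libraries (adjusted p = 0.00482), and the call was also lost without low-melanin replicate 2 or 3 (0.0514 and 0.0835) or glucose replicate 2 (0.0581). GLOTRDRAFT_140299 and GLOTRDRAFT_138821 showed the same order of carbon sources. GLOTRDRAFT_140299 rose from 53.2, 212 and 279 to 794, 1324 and 461.5 CPM between the necromass types, a log2 difference of 2.24 ± 0.55 (SE, adjusted p = 0.0409). It was lost in 6 of the 9 fits that left out a library, with adjusted p from 0.0549 to 0.104 in those without low-melanin replicate 2, high-melanin replicate 1 or 2 or any glucose library. GLOTRDRAFT_138821 rose from 35.1, 121 and 98.4 to 157, 389 and 520.1 CPM, a log2 difference of 2.07 ± 0.49 (SE, adjusted p = 0.0378). It was kept only without high-melanin replicate 1, with adjusted p from 0.0513 to 0.0986 in the other 8 fits, and its log2 difference was 1.32 without both short-fragment libraries (adjusted p = 0.132). With the fragment-length covariate the adjusted p was 0.0501. GLOTRDRAFT_101715 differed from these, being high on glucose at 3799, 2236 and 3820 CPM. It was at 1108, 478 and 587 CPM on low-melanin and 2510, 2786 and 2227 CPM on high-melanin necromass, a log2 difference of 1.79 ± 0.33 (SE, adjusted p = 0.0115), which was lost without low-melanin replicate 3 (0.0527). Some of its counts had been divided among similar transcripts, which leaves its level uncertain.

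**Figure D3:**
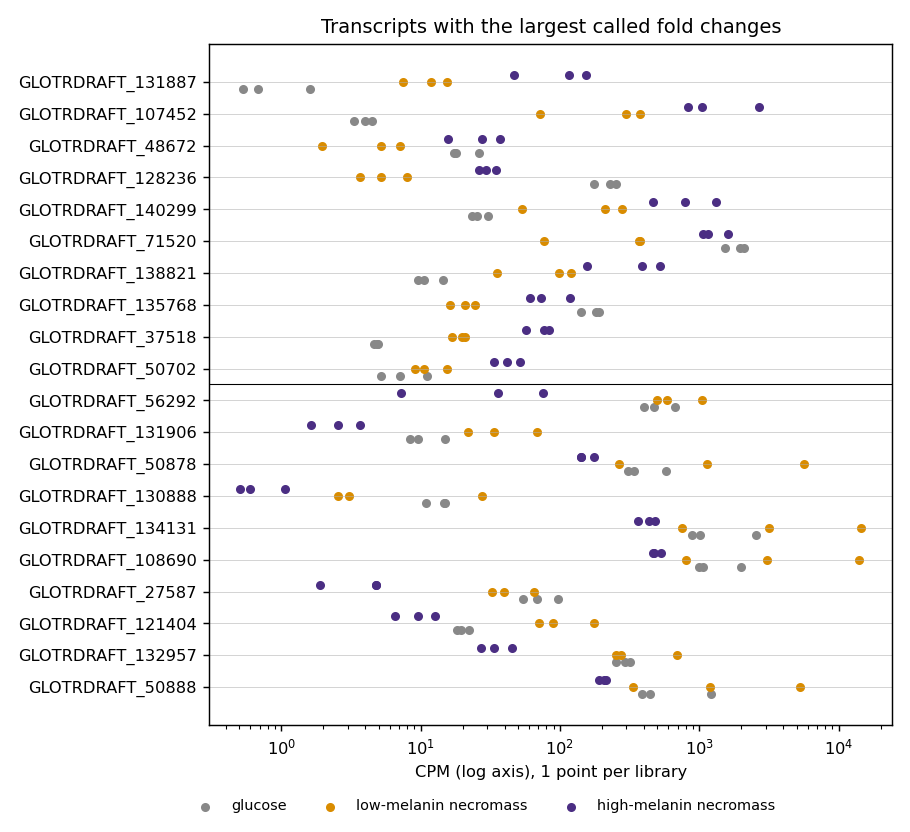
CPM of the 10 transcripts each way with the largest called fold change, on a log axis, with 1 point per library (grey for glucose, orange for low-melanin, purple for high-melanin necromass). Higher transcripts stand above the black line and lower ones under it; in every row the purple and orange points do not overlap, while the grey points lie on either side of them.

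Among the transcripts with the largest decreases, a first group was about as abundant on low-melanin necromass as on glucose and low on high-melanin necromass alone. GLOTRDRAFT_56292, of 683 bases, was at 474, 398.5 and 665 CPM on glucose, at 499, 1048 and 590.5 on low-melanin necromass and at 36.0, 75.6 and 7.27 on the high-melanin type. Its log2 difference between the necromass types was -4.17 ± 0.71 (SE, adjusted p = 0.00892). Leaving out high-melanin replicate 1 gave an adjusted p of 0.0517, and leaving out replicate 2 of that group gave a difference of -5.03. GLOTRDRAFT_132957 stood at 316, 295 and 252 CPM on glucose, at 250.5, 689.5 and 272 on low-melanin necromass and at 33.7, 45.6 and 27.3 on the high-melanin type. Glucose and low-melanin libraries overlapped, and the high-melanin libraries lay under both. The log2 difference was -3.51 ± 0.40 (SE, adjusted p = 0.00175), it was called in all 22 alternatives, and it was -2.88 without low-melanin replicate 2, the highest library. GLOTRDRAFT_27587 was at 96.05, 53.9 and 69.0 CPM on glucose, at 32.8, 64.7 and 39.6 on low-melanin necromass and at 4.82, 4.76 and 1.91 on the high-melanin type, a log2 difference of -3.57 ± 0.39 (SE, adjusted p = 0.00148) that was called in all 22 alternatives. Some counts of this transcript, too, had been divided among similar ones, and its level is uncertain. GLOTRDRAFT_130888, of 411 bases and with divided counts as well, does not belong to this group. It was at 15.1, 14.7 and 10.96 CPM on glucose, at 27.6, 3.06 and 2.54 on low-melanin necromass and at 0.51, 0.599 and 1.06 on the high-melanin type, so that only low-melanin replicate 1 exceeded the glucose libraries. The difference of -3.92 ± 0.93 (SE, adjusted p = 0.0357) rested in its size on low-melanin replicate 1 and was -1.94 without it (adjusted p = 0.0105). The call was lost without any 1 of the high-melanin libraries (0.131, 0.101 and 0.0882) or without glucose replicate 1 or 2 (0.0503 and 0.0621), and with the fragment-length covariate (0.0533).

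A second group peaked on low-melanin necromass, where it exceeded both glucose and high-melanin necromass. GLOTRDRAFT_121404, of 513 bases, was at 22.3, 19.5 and 18.2 CPM on glucose, at 175, 88.65 and 70.8 on low-melanin necromass and at 6.58, 9.62 and 12.6 on the high-melanin type. The 3 carbon sources did not overlap. Its log2 difference between the necromass types was -3.53 ± 0.36 (SE, adjusted p = 0.00103), and against glucose it was higher on low-melanin by 2.48 (adjusted p = 0.000188) and lower on high-melanin necromass by 1.05, a log2 difference of -1.05 (adjusted p = 0.0222). GLOTRDRAFT_131906, of 471 bases, had the same order, at 14.97, 8.33 and 9.53 CPM on glucose, at 67.9, 22 and 33.5 on low-melanin necromass and at 1.62, 2.55 and 3.68 on the high-melanin type. Its necromass difference of -3.97 ± 0.47 (SE, adjusted p = 0.00221), like that of GLOTRDRAFT_121404, was called in all 22 alternatives.

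In CPM, 3 further transcripts of this kind accounted for large differences. GLOTRDRAFT_115007, of 3521 bases, was among the most abundant, at 6622, 7789 and 6312 CPM on low-melanin and 3122, 3114 and 2987 CPM on high-melanin necromass. The high-melanin libraries lay within a narrow range and under the glucose libraries at 4207, 4209 and 4730 CPM. The log2 difference between the necromass types was -1.17 ± 0.17 (SE, adjusted p = 0.00417), and only the test beyond 2-fold ended the call. GLOTRDRAFT_117647 was at 3731, 5993 and 3220 CPM on low-melanin and 1456, 1670 and 992 CPM on high-melanin necromass, a log2 difference of -1.65 ± 0.28 (SE, adjusted p = 0.00812). GLOTRDRAFT_74492 was at 2376, 4754 and 3104 CPM on low-melanin and 892, 1288 and 493 CPM on high-melanin necromass, a log2 difference of -1.94 ± 0.36 (SE, adjusted p = 0.0115), lost without high-melanin replicate 1 (0.0575). For these 2 transcripts the high-melanin level did not pass the test against glucose, with log2 fold changes of -0.19 (adjusted p = 0.563) and -0.35 (adjusted p = 0.404), while the low-melanin level was above glucose by 1.46 and 1.59 (adjusted p = 0.00144 and 0.00371).

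The transcripts lower on high-melanin necromass included 4 short and very abundant ones whose genes lie side by side in the reference order. These are GLOTRDRAFT_50888 (180 bases), GLOTRDRAFT_108690 (420 bases), GLOTRDRAFT_50878 (195 bases) and GLOTRDRAFT_134131 (198 bases). In TPM, the authors' length-scaled unit, they ranked 2, 5, 3 and 1 among all transcripts of low-melanin replicate 1. In low-melanin replicate 2 they ranked 5, 12, 6 and 2, and in replicate 3 they ranked 14, 31, 24 and 6. Unlike GLOTRDRAFT_108690, the others are shorter than the mean fragment of low-melanin replicate 1 (246 bases). There GLOTRDRAFT_134131 had 144600 TPM at 14550 CPM, and GLOTRDRAFT_108690 had 34460 TPM at 14060 CPM. These TPM values and ranks thus depend strongly on length and are not shares of counts. The low-melanin libraries differed widely among themselves. GLOTRDRAFT_134131 was at 14550, 3168 and 746 CPM in low-melanin replicates 1, 2 and 3, against 433.5, 483 and 366 CPM on high-melanin necromass. GLOTRDRAFT_50878 was at 5598, 1130 and 265 CPM on low-melanin and 141, 177 and 141 CPM on high-melanin necromass. The groups did not overlap, but low-melanin replicate 3 lay closer to the high-melanin libraries than to low-melanin replicate 1. On glucose GLOTRDRAFT_134131 was at 2570, 879.5 and 1006 CPM, so glucose replicate 1 was also well above the others of its group. Low-melanin replicate 1 had the shortest mean fragments of the 9 libraries (246 bases) and glucose replicate 1 the longest (317.9 bases).

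The fitted log2 differences of the quartet were -3.85 ± 0.92 for GLOTRDRAFT_134131 (SE, adjusted p = 0.0381), -3.60 ± 0.85 for GLOTRDRAFT_108690 (adjusted p = 0.0356), -3.93 ± 0.90 for GLOTRDRAFT_50878 (adjusted p = 0.0313) and -3.46 ± 0.87 for GLOTRDRAFT_50888 (adjusted p = 0.0446). Without low-melanin replicate 1 they were -2.20, -1.96, -2.19 and -1.90, and only GLOTRDRAFT_50878 was still called (adjusted p = 0.0842, 0.0621, 0.0462 and 0.115). All 4 calls were also lost without any 1 of the high-melanin libraries, at adjusted p from 0.0774 to 0.148, and without glucose replicate 2, at 0.0541 to 0.0683. Those of GLOTRDRAFT_134131 and GLOTRDRAFT_50888 were lost without low-melanin replicate 2 (0.0565 and 0.0659), and that of GLOTRDRAFT_50888 without glucose replicate 3 (0.0574). Without both short-fragment libraries the differences were -2.09, -1.93, -2.13 and -1.91 in the same order, and none of the 4 was called (adjusted p = 0.195, 0.146, 0.124 and 0.219). With the fragment-length covariate GLOTRDRAFT_108690 and GLOTRDRAFT_50888 were not called (0.0532 and 0.057). None of the 4 was called in the fit of only the 6 necromass libraries, at adjusted p from 0.0721 to 0.0793. The same held in limma-voom with quality weights, at adjusted p from 0.05 to 0.0663 and differences from -2.92 to -2.65. The direction was the same in every alternative, which the full separation of the libraries made likely. The fitted size moved with low-melanin replicate 1.

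Transcripts called lower, and also those called higher, had neighbours called the same way more often than all tested transcripts were called that way. For each lower transcript, the tested reference genes directly before and after it were counted, so a gene between lower ones entered from both sides. Of these 961 neighbour positions, 140 (14.6%) held a transcript called lower, against 4.65% of all transcripts tested. For higher transcripts, 26 of 423 such positions (6.15%) held one called higher, against 2.06% of all. Unbroken runs of at least 3 neighbours called in the same direction numbered 15 for lower transcripts, holding 50 genes, and 0 for higher transcripts. Fewer transcripts were called higher, 221 against 499 lower, and the number of runs to be expected from these counts was not computed. Of the 15 runs 11 had 3 genes, 3 had 4 genes and 1 had 5 genes. The quartet of short transcripts is one of the runs of 4. The share of lower neighbours was 11.9% to 16.4% in the alternatives other than the test beyond 2-fold, which left too few calls. Runs of higher genes did occur under other fits, with 6 in DESeq2, 4 with scaling by library size alone, and 1 each in limma-voom, with the fragment-length covariate and without high-melanin replicate 3.

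Several runs lay close together, and windows of 10 neighbouring genes with at least 5 lower calls merged into 5 stretches, a rule added after the values had been seen. The fullest stretch ran from GLOTRDRAFT_131251 to GLOTRDRAFT_45763 and held 8 lower calls among 10 genes. The exceptions were GLOTRDRAFT_95030 and GLOTRDRAFT_45532, with log2 differences of -0.35 (adjusted p = 0.648) and -0.64 (adjusted p = 0.116). Its 8 lower transcripts had a median log2 difference of -1.35 between the necromass types, from -2.70 to -0.72. They were chosen as lower calls, and the median of all 499 lower calls was -1.04. Without low-melanin replicate 1, the highest low-melanin library for 6 of the 8, the median of these transcripts was -1.21. They took 0.511%, 0.513% and 0.499% of the counts on glucose, 0.198%, 0.127% and 0.133% on low-melanin necromass and 0.0554%, 0.071% and 0.0499% on the high-melanin type. The summed level stepped down from glucose to low-melanin to high-melanin necromass without overlap. Between the necromass types that separation follows from choosing called transcripts, none of which overlapped, and it tests nothing. The glucose mean was the highest of the 3 for all 8, and 7 of them were called lower on low-melanin necromass than on glucose. The exception was GLOTRDRAFT_131251, with overlapping libraries and means of 34.08 CPM on glucose and 33.15 on low-melanin necromass (adjusted p = 0.894). GLOTRDRAFT_45763, of 1470 bases, went furthest, from 1311, 1421 and 1410 CPM on glucose to 507, 199.6 and 219.6 on low-melanin necromass and 41.6, 62.95 and 38.4 on the high-melanin type. Its log2 difference between necromass types was -2.70 ± 0.36 (SE, adjusted p = 0.00326). GLOTRDRAFT_139944, of 1770 bases, went from 1008, 1020 and 912 to 305.5, 198 and 185 and then to 72.2, 96.3 and 80.95 CPM, with a necromass difference of -1.46 ± 0.20 (SE, adjusted p = 0.00349). The most abundant on low-melanin necromass was GLOTRDRAFT_122318, at 541, 391 and 360.5 CPM there, 148, 200.5 and 138 on the high-melanin type and 1128, 1145 and 1167 on glucose (-1.41 ± 0.20, SE, adjusted p = 0.00349). Of the 15 tested genes within 8 places on either side of the stretch, 0 were called in edgeR, DESeq2 or limma-voom, and 3 had an unadjusted p under 0.05 in edgeR. Against 6.71% called over all transcripts, a count of 0 among 15 is near the background. So are 1 of 16, 0 of 16, 1 of 8 and 0 of 15 beside the other 4 stretches described next. The call beside one of those stretches, GLOTRDRAFT_126309, was a higher one, by 1.14 on the log2 scale (adjusted p = 0.0211). A lower call close to an end would have been taken into its stretch by the window rule. These counts were thus partly fixed by that rule and test nothing about where a stretch ends. Every one of the 8 kept its sign in all alternatives, which the full separation of the libraries made likely. When single libraries were left out, 6 to 8 were called.

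The stretch from GLOTRDRAFT_123623 to GLOTRDRAFT_134092 held 7 lower calls among 10 genes. Their median log2 difference was -1.58, from -2.24 to -1.13, and -1.38 without low-melanin replicate 1, the highest low-melanin library for 6 of the 7. Together they took 0.547%, 0.82% and 0.591% of the counts on glucose, 0.208%, 0.102% and 0.15% on low-melanin necromass and 0.0576%, 0.0584% and 0.0523% on the high-melanin type. As in the stretch before, the groups stepped down without overlap, which between the necromass types again follows from the choice of called transcripts. All 7 were also called lower on low-melanin necromass than on glucose. GLOTRDRAFT_82487 was at 2508, 4017 and 2443 CPM on glucose, at 355, 117 and 152 on low-melanin necromass and at 51.1, 38.0 and 65.7 on the high-melanin type. Its necromass difference was -2.01 ± 0.42 (SE, adjusted p = 0.0206), but -1.38 without low-melanin replicate 1, and the call was lost without high-melanin replicate 1 (0.0882) or 2 (0.0651). GLOTRDRAFT_112738, of 766 bases, showed less spread, at 151, 119.7 and 123.5 CPM on low-melanin necromass and 38.8, 50.03 and 43.4 on the high-melanin type. It differed by -1.58 ± 0.14 (SE, adjusted p = 0.000693). GLOTRDRAFT_67059 was at 145, 87.15 and 86.3 against 22.2, 25.6 and 19.3 CPM, a difference of -2.24 ± 0.23 (SE, adjusted p = 0.00103) that also passed the test beyond 2-fold (0.0185). At the edge of the stretch lies the long transcript GLOTRDRAFT_123623, of 8082 bases, at 716, 323.5 and 628 against 226, 235 and 160.0 CPM. Its difference of -1.43 ± 0.35 (SE, adjusted p = 0.041) was lost without any 1 of the high-melanin libraries (0.116, 0.0769 and 0.12), low-melanin replicate 1 or 3 (0.12 and 0.118) or glucose replicate 2 or 3 (0.0611 and 0.0549). Of the remaining 3 genes, GLOTRDRAFT_67066 stood at a mean of 2747 CPM on low-melanin and 3138 CPM on high-melanin necromass (log2 difference 0.19, adjusted p = 0.888), and GLOTRDRAFT_141584 and GLOTRDRAFT_141586 had differences of -0.77 and -0.61 (adjusted p = 0.0639 and 0.0916).

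A further stretch, from GLOTRDRAFT_141115 to GLOTRDRAFT_21123, held 7 lower calls among 9 tested genes. Their median log2 difference was -2.04, from -3.05 to -1.37, and -1.45 without low-melanin replicate 1, which was the highest low-melanin library for all 7. GLOTRDRAFT_81499, of 933 bases, was the most abundant, at 1764, 2229 and 1620 CPM on glucose, at 1357, 697 and 839 on low-melanin necromass and at 331, 289.9 and 306 on the high-melanin type. Its difference between the necromass types was -1.64 ± 0.25 (SE, adjusted p = 0.00502). GLOTRDRAFT_141115 had the largest difference, at 98.4, 19.2 and 31.5 against 7.56, 7.00 and 3.46 CPM, or -3.05 ± 0.56 on the log2 scale (SE, adjusted p = 0.0119). It was -2.08 without low-melanin replicate 1, and the adjusted p was 0.0503 without high-melanin replicate 1. Its glucose level of 619, 711 and 535 CPM was far above both. GLOTRDRAFT_133278 was at 244, 141 and 185 against 81.0, 67.3 and 72.3 CPM, a difference of -1.37 ± 0.20 (SE, adjusted p = 0.00393). The glucose mean was the highest of the 3 carbon sources for 6 of the 7, the exception being the short GLOTRDRAFT_21123 of 156 bases, at means of 0.411 CPM on glucose, 2.38 on low-melanin necromass and 0.461 on the high-melanin type. GLOTRDRAFT_118046, inside the stretch, did not follow it, with means of 41.7 and 41.85 CPM on the necromass types and 19.1 CPM on glucose. Without high-melanin replicate 1, 3 of the 7 were still called. All 7 kept their sign in the alternatives in which they were tested, which the full separation of the libraries made likely.

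**Figure D4:**
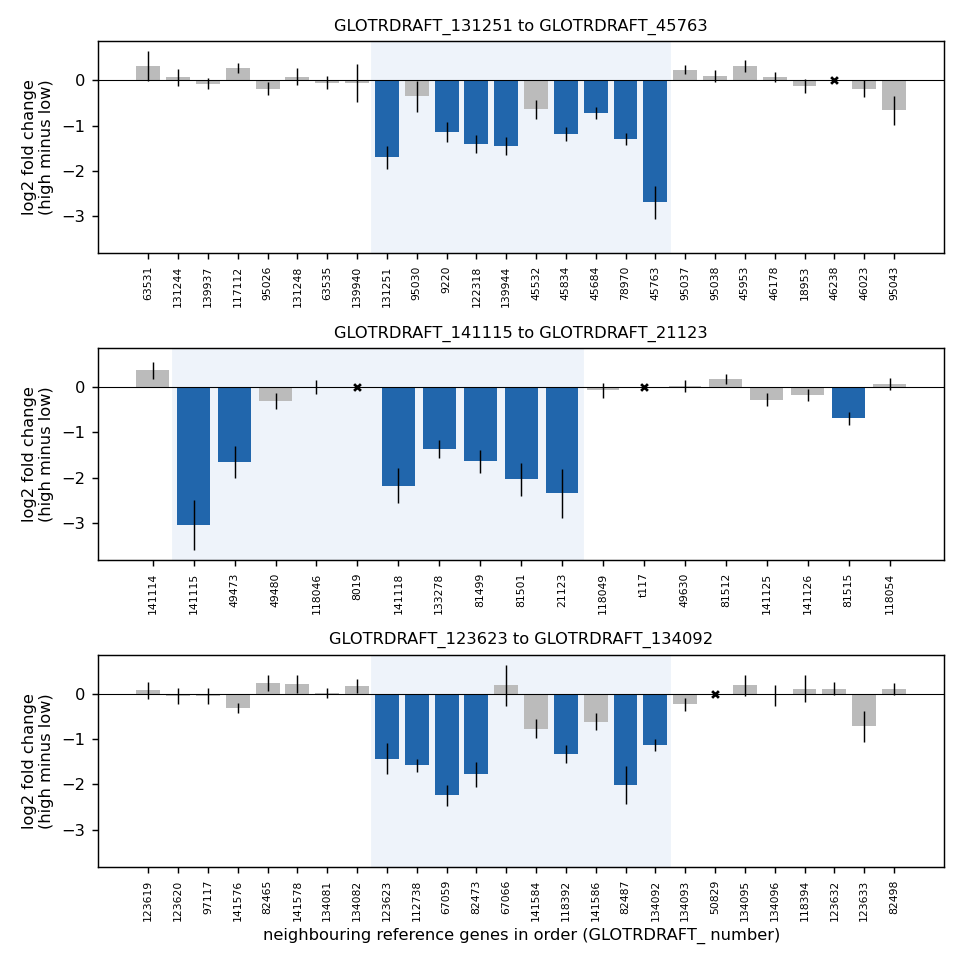
Log2 fold change (high-melanin minus low-melanin necromass) of neighbouring reference genes in their order along 3 stretches, shaded, with up to 8 genes on either side. Bars are fitted values with 1 SE, blue where called lower and grey where not called, and a cross marks a gene that was not tested. The blue bars fill most of each shaded part, and of the genes beside them only GLOTRDRAFT_81515 was called. Lower calls close to a shaded part would have been taken into it by the rule that formed it.

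**Figure D5:**
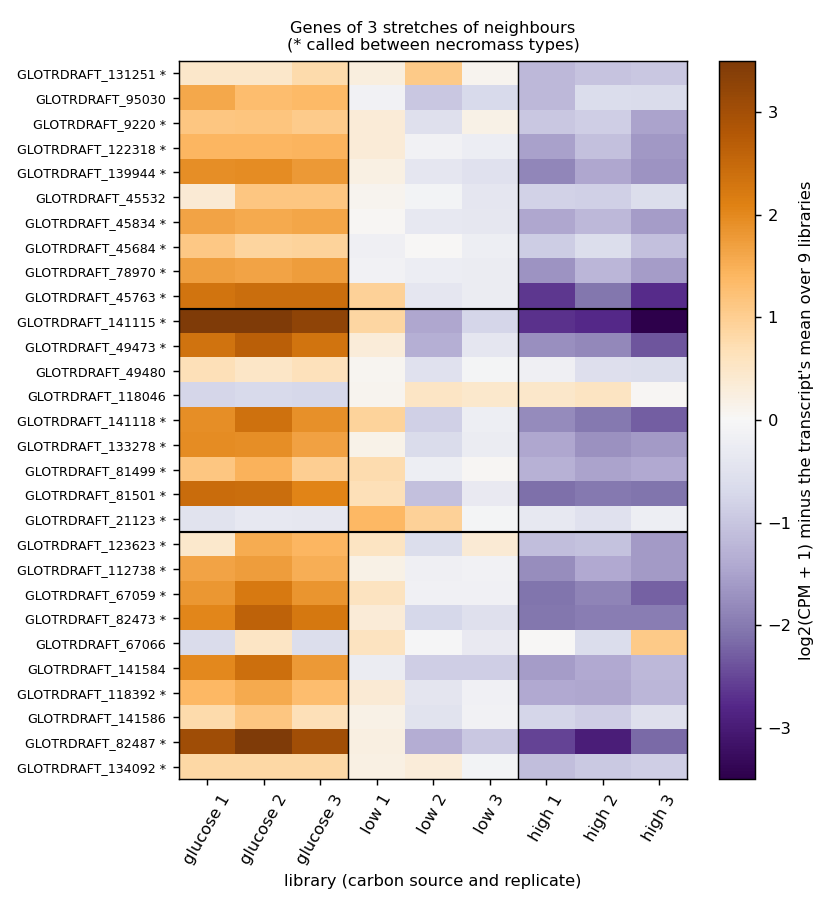
Level of each tested gene of the same 3 stretches in all 9 libraries, as log2(CPM + 1) minus the gene's mean, with brown above and purple under that mean and colours ending at 3.5 either way. Asterisks mark genes called between the necromass types; in most of these rows the glucose libraries are the highest, the low-melanin libraries intermediate and the high-melanin libraries the lowest.

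The other stretches showed this order of carbon sources in some of their genes but not in all. From GLOTRDRAFT_103842 to GLOTRDRAFT_56292, 5 of 9 genes were lower on high-melanin necromass, in 2 blocks at its ends. The glucose mean was above both necromass means for 3 of the 5. At one end GLOTRDRAFT_103842 and GLOTRDRAFT_36687 stepped down. Their means were 75.7 and 580 CPM on glucose, 21.5 and 312 on low-melanin and 5.27 and 157.5 on high-melanin necromass. At the other end GLOTRDRAFT_56287 was at 47.0, 42.1 and 41.6 CPM on glucose, at 268, 366 and 272 on low-melanin necromass and at 135, 155 and 144 on the high-melanin type, so that both types exceeded glucose. It was lower on the high-melanin type by a log2 difference of -1.06 ± 0.14 (SE, adjusted p = 0.00326). Its neighbour GLOTRDRAFT_136682 was at 65.9, 60.2 and 59.2 CPM on glucose and at 61.9, 62.6 and 50.9 on low-melanin necromass, values that overlap, and at 19.98, 22.95 and 17.2 on high-melanin necromass. That difference was -1.54 ± 0.14 (SE, adjusted p = 0.000636), and the next gene is GLOTRDRAFT_56292, described above. In this run of 3 neighbours the glucose level was thus lowest in one gene and close to the low-melanin level in the others. The stretch from GLOTRDRAFT_46084 to GLOTRDRAFT_140138 held 6 smaller lower changes among 9 genes, with a median of -0.91. The glucose mean was above both necromass means for all 6, and 2 of the 6 remained called without high-melanin replicate 1.

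Apart from the quartet, the run outside the stretches with the largest change was that of GLOTRDRAFT_132891, GLOTRDRAFT_123122 and GLOTRDRAFT_132893. GLOTRDRAFT_132891, of 1029 bases, was at 355, 407 and 345 CPM on glucose, at 70.6, 71.5 and 91.0 on low-melanin necromass and at 7.97, 11.4 and 4.12 on the high-melanin type. The 3 carbon sources did not overlap, and the log2 difference between necromass types was -3.31 (adjusted p = 0.000794), which also passed the test beyond 2-fold (0.011). GLOTRDRAFT_132893, at the other end of this run, was lower by a log2 difference of -1.78 (adjusted p = 0.00103). GLOTRDRAFT_123122 between them changed less, with -0.59 (adjusted p = 0.0441), a call kept in 1 of the 9 fits that left out a library, that without high-melanin replicate 1, with adjusted p from 0.0627 to 0.121 in the others. In another run GLOTRDRAFT_141029 was at 15.9, 21.0 and 18.3 CPM on glucose, at 367, 301.5 and 249.8 on low-melanin necromass and at 105, 135 and 139 on the high-melanin type. It differed by -1.27 (adjusted p = 0.00349), while its neighbours GLOTRDRAFT_49308 and GLOTRDRAFT_49126, at means of 27.9 and 12.9 CPM on low-melanin necromass, differed by -1.07 and -1.30. GLOTRDRAFT_113728, in a run with GLOTRDRAFT_23944 and GLOTRDRAFT_119219, was at 55.5, 63.8 and 55.2 against 11.2, 14.3 and 10.1 CPM, a difference of -2.29 (adjusted p = 0.000982).

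High-melanin replicate 3, which stood apart on the first component, was the lowest high-melanin library for 242 of the 499 lower calls (48.5%), against 39.7% of all transcripts tested. It was the highest for 106 of the 221 higher calls (48.0%), against 44.7% of all, a share near the background. High-melanin replicate 1 was the lowest for 204 of the lower calls (40.9%, against 35.2% of all) and the highest for 74 of the higher calls (33.5%, against 26% of all). High-melanin replicate 2 departed most from the background. It was the highest for 299 of the lower calls (59.9%, against 29.3% of all) and the lowest for 106 of the higher calls (48.0%, against 25.1% of all). In these calls it was the high-melanin library nearest to the low-melanin ones. Without replicate 3, 387 of the lower and 152 of the higher calls were kept. Of the lists by gene function or protein type only that of tRNA-type loci could be formed from the locus tags. It held 127 loci, of which 5 passed the filter on low counts and 0 were called, in edgeR, DESeq2 or limma-voom (1 at an unadjusted p under 0.05 in edgeR), with a median log2 difference of 0.76 against 0.01 over all transcripts tested. At 6.71% called over all transcripts, 0 of 5 is no more than the background gives.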

How the data were processed

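Per the file headers, the authors deposited kallisto-type tables with estimated counts, TPM and effective length per transcript. The submitters' processing notes name kallisto 0.51.1 and DESeq2 1.48.2. The transcript set, its genome build and whether reads were counted by strand are not given in the sources used here. All 11880 identifiers were found in a RefSeq gene table (assembly Glotr1_1), used only for locus tags and gene order, with a border wherever the start position fell. Estimated counts were rounded. filterByExpr kept 10728 transcripts and at least 99.9875% of each library's counts. All 9 *G. trabeum* libraries were fitted in edgeR 4.0.16 (R 4.3.3) with TMM scaling, the carbon source as the only term and robust quasi-likelihood tests. Adjusted p-values are Benjamini-Hochberg over all tested transcripts, called under 0.05. SE is the size of the log2 fold change over the square root of F. Mean fragment length was taken as length minus effective length in transcripts of at least 5000 bases. Log2 CPM used a prior count of 2. The script was checked on simulated counts. A transcript has divided counts where any library's count lies over 0.01 from a whole number. No library pair agreed within sampling noise (lowest chi-square per degree of freedom 36.72).

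Named transcripts are the 10 each way with the largest fold among calls without overlap and with 10 CPM or more as the mean of the higher group, the 5 each way with the largest CPM difference, and members of runs of at least 3 neighbours. Members and lists were chosen with earlier results of these data known. Of 35 lists, 1 could be built. Alternatives were other scalings, filters and tests, a fit of the 6 necromass libraries, the replicate block, leaving out each library, a fragment-length covariate, and leaving out both short-fragment libraries; the last 2, the stretches and the counts of neighbours and runs under each alternative were added after seeing the data.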

Additional observations from a re-analysis of the deposited data

How the results depend on the processing

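No called transcript changed direction under any alternative, which tests little because the libraries of every call were fully separated. The balance of calls did change, as library size alone gave 441 higher and 406 lower. Against 720 calls, a fit of only the 6 necromass libraries gave 441, the test beyond 2-fold 33 and DESeq2 1218. For higher calls (221) the values were 117, 3 and 462, with 441 by library size alone and 133 with the replicate block, and for lower calls (499) 324, 30 and 756. Calls of at least 2-fold were 74 higher, with 121 by library size alone, 49 in the fit of 6 libraries, 3 beyond 2-fold and 112 in DESeq2, and 257 lower, with 30 beyond 2-fold. Leaving out 1 library gave 320 to 663 calls, 97 to 229 higher, 223 to 465 lower, 54 to 102 higher and 150 to 266 lower by at least 2-fold, and 7 to 13 runs in place of 15. The number of runs was 7 in the fit of 6 libraries, 9 with the replicate block, 0 beyond 2-fold and 9 without both short-fragment libraries. Deviations of same-numbered low- and high-melanin libraries from their group means had correlations of -0.133, 0.0188 and -0.516. With 3 libraries a group these values cannot settle whether same-numbered libraries belong together, and the labels do not say. The replicate block gave 513 calls, 380 of them lower, 61 higher and 236 lower by at least 2-fold; GLOTRDRAFT_134131, GLOTRDRAFT_108690, GLOTRDRAFT_50878 and GLOTRDRAFT_50888 were not called there, at -3.05, -2.89, -3.18 and -2.70. Of 82 transcripts chosen for naming, 21 were not called in the fit of 6 libraries and 16 not with the block. Besides the quartet, the former included the increases of GLOTRDRAFT_71520, GLOTRDRAFT_107452, GLOTRDRAFT_140299, GLOTRDRAFT_138821 and GLOTRDRAFT_126546. Their adjusted p in the edgeR fit of 6 libraries lay between 0.0632 and 0.0959. With fragment length as a covariate 706 were called, and without both short-fragment libraries 599. The smaller fits have fewer libraries to estimate spread, and the test beyond 2-fold asks for more; the cause of the other shifts was not tested. With 3 libraries a group, low-count transcripts and changes under 2-fold are uncertain. So are some large changes of abundant transcripts, such as those of the quartet. Per-transcript levels with divided counts depend on how kallisto split them.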
